A study of Homo sapiens with 84 samples.

Results

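The comparison described here is that of NCI-H1373 cells kept with the vehicle DMSO for 24 h and for 6 h. It rests on 6 libraries of the 84 in the series, 3 per time, chosen by the line, treatment and time in their titles and not by any measured value. NCI-H1373 is an established human non-small cell lung cancer line. DMSO is the solvent in which the study gave its PARP7 inhibitors, and none of these 6 cultures received an inhibitor. Per the labels, cells were plated in 6-well dishes and left overnight before the additions, and experiments were done in triplicate, with no culture, plate or day named for a replicate. P-values rest on the spread among replicates, estimated over all 42 libraries of the line, part of which may be technical. Time since plating and time with DMSO differ together between the 2 groups and cannot be told apart, cell density and the state of the medium were not measured, and no library from the start of treatment is among the groups. In the study both groups serve as the baseline for inhibitor effects. Further libraries serve here for comparison: NCI-H1373 with RBN-2397 at 10, 30 or 300 nM (spelled RBN012397 in the sample labels) or RBN012337 at 3, 10 or 100 nM, with 18 libraries at 24 h and 18 at 6 h, and NCI-H647, a second non-small cell lung cancer line, with DMSO for 24 h and 6 h, 3 libraries each.

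A dividing cell commits to DNA synthesis when E2F transcription factors switch on the genes of the replication machinery: the MCM helicase and its loaders, DNA polymerases and the enzymes that make deoxynucleotides. Growth also needs new ribosomes, whose RNA is processed in the nucleolus and whose many proteins are encoded by highly transcribed genes. When amino acids run short or proteins misfold, translation slows and the factor ATF4 raises genes for amino acid uptake and synthesis, while lysosome and autophagy genes serve the recycling of cell contents.

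Libraries of this kind read the 3′ ends of transcripts, and values are given as TMM-scaled CPM, the count of a gene per 1e6 counts of its library. Total counts were 3610536, 1622874 and 630654 in replicates 1, 2 and 3 at 24 h, against 5523112, 2481690 and 1664154 at 6 h. Detected genes numbered 20011, 17823 and 13600 at 24 h, against 20623, 17630 and 16730 at 6 h. Total counts lay under 2200000 for 2 of 3 libraries at 24 h, against 1 of 3 at 6 h. On the leading principal component, with 38% of the variance, 24 h replicate 3, the shallowest library, lay at 29.5 and 24 h replicates 1 and 2 at -25.1 and -47.2, against 2.9, 29.4 and 10.5 for the 6 h libraries. On the second component it lay at -41.4, with 24 h replicates 1 and 2 at 5.6 and -14.1, against 35.1, 23.4 and -8.6 at 6 h. It was thus on the 6 h side of the first component and furthest from the 6 h libraries on the second. Its label was taken as given, and whether it was harvested as labelled was not tested. The share of mitochondrial counts was 12.37%, 11.67% and 8.05% at 24 h, against 9.36%, 9.96% and 9.38% at 6 h. Epithelial genes marked every library: EPCAM had between 245 and 490.4 CPM, and KRT8 between 306 and 813 CPM. The lung adenocarcinoma factor NKX2-1 had 4.85 to 15.6 CPM, and surfactant gene SFTPC was at 0 in all 6. Of 7 fibroblast markers, 4 (COL1A2, DCN, LUM, PDGFRB) were at 0 in all 6 libraries, and the list summed to 8.21, 12.6 and 1.73 CPM at 24 h, against 4.89, 5.75 and 2.43 CPM at 6 h, mostly from COL1A1. Of 8 leukocyte markers, 3 were at 0 in all 6, PTPRC and CD3E among them, and the list summed to 6.16, 10.6 and 8.64 CPM at 24 h, against 5.49, 16.2 and 2.43 CPM at 6 h, mostly from CD68. Of 5 endothelial markers, 3 (VWF, CDH5, TEK) were at 0 in all 6, and the list reached 1.82 CPM at most. Of 4 red cell markers, 1 (ALAS2) was at 0 in all 6. The list summed to 0.51, 0.5 and 17.3 CPM at 24 h, against 0, 11.5 and 0 CPM at 6 h, all from hemoglobin genes. The source of these reads was not tested. Total RNA of a culture was measured, so fewer cells of one state and less RNA per cell cannot be told apart.

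With time in DMSO, 1170 of 12832 tested genes (9.12%) changed at an adjusted p under 0.05 by edgeR's quasi-likelihood test, which is what "called" means below. Of these, 470 were higher at 24 h (3.66% of genes tested) and 700 were lower (5.46%). Counts of called list members in DMSO below are to be read against these shares. The lists were chosen with earlier results of these data known, so a share above these is no test of a list. The median log2 change over all tested genes was 0.03. The 24 h and 6 h libraries did not overlap for 2072 genes (16.1%), of which 981 (7.64%) were higher at 24 h and 1091 (8.5%) lower. Among called genes, 335 higher and 525 lower ones did not overlap. For 532 of the 1170 called genes, 24 h replicate 3 lay nearer to the 6 h mean than to the mean of 24 h replicates 1 and 2 on the log2(CPM + 1) scale. Leaving out single libraries moved the number called a great deal: to 209, 397 and 1884 without 24 h replicate 1, 2 or 3, and to 473, 656 and 1208 without 6 h replicate 1, 2 or 3. Fitted alone, without the 36 other libraries of the line that share the estimate of spread, the 6 libraries gave 0 called of 10004 genes by the same edgeR test, with 1238 at an unadjusted p under 0.05. Of the 1170 called genes, 1050 were tested in that fit and had the same sign. The same 6 libraries gave the calls and these signs, so the kept sign is no separate support.

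**Figure D1:**
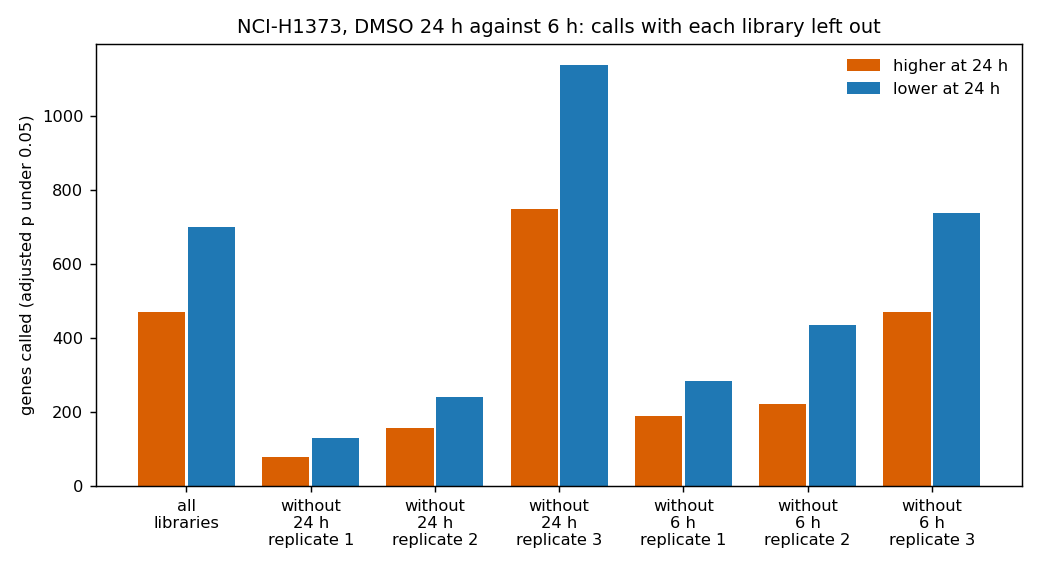
Genes called higher (orange) and lower (blue) at 24 h than at 6 h in DMSO-treated NCI-H1373, counted as bars, with all libraries and with each of the 6 libraries left out. Without 24 h replicate 1 the calls numbered 209 in all, and without 24 h replicate 3 they numbered 1884.

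Among called genes with at least 10 CPM and no overlap, the 15 largest rises ran from 2.17 to 3.53 on the log2 scale. ABTB1 headed them with 11.4, 20.8 and 3.47 CPM at 24 h, against 1.57, 0 and 1.22 CPM at 6 h, a log2 change of 3.53 ± 0.73 (adjusted p = 0.00263). The error given with each log2 change is its standard error. CHAC1, an enzyme that degrades glutathione, had 16.8, 15.7 and 1.74 CPM at 24 h, against 1.57, 1.05 and 1.22 CPM at 6 h, a log2 change of 3.2 ± 0.82 (adjusted p = 0.013). In both genes replicate 3 at 24 h was the lowest of its group, and for CHAC1 it lay close to the 6 h libraries. ANKRD1, a nuclear ankyrin-repeat protein and known YAP target, had 12.1, 9.62 and 12.2 CPM at 24 h, against 1.38, 1.05 and 1.83 CPM at 6 h, a log2 change of 2.97 ± 0.80 (adjusted p = 0.017). KLHL9, an adaptor of the CUL3 ubiquitin ligase, had 17.6, 15.2 and 13.9 CPM at 24 h, against 2.16, 2.62 and 3.05 CPM at 6 h, a log2 change of 2.64 ± 0.46 (adjusted p = 0.000585). For ANKRD1 and KLHL9 all 3 libraries at 24 h were alike and far above those at 6 h. The small MAF transcription factor MAFK rose by 2.92 ± 0.58 (adjusted p = 0.00189), and GTPBP2, a GTPase that helps rescue stalled ribosomes in mice, by 2.91 ± 0.57 (adjusted p = 0.00176). LIPH, a phospholipase that makes lysophosphatidic acid, rose by 2.34 ± 0.40 (adjusted p = 0.000516), with 41.8, 38 and 20.8 CPM at 24 h, against 9.64, 4.72 and 4.88 CPM at 6 h. The others were the ubiquitin ligase RNF19A, AC020916.1, the translation termination factor GSPT2, TRIB3, SNORD13, the transcription factor KLF2, the microtubule protein MAP2 and the long noncoding RNA LUCAT1. MAFK, GTPBP2, RNF19A, AC020916.1, SNORD13 and LUCAT1 each overlap a gene on the other strand, and without strand in the sources their counts may include reads of that partner.

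The 15 largest falls ran from -2.28 to -4.69 on the log2 scale. KRT4, a keratin of stratified epithelia, had 1.81, 0.506 and 6.94 CPM at 24 h, against 91.3, 17.3 and 42.7 CPM at 6 h, a log2 change of -4.69 ± 1.17 (adjusted p = 0.0135). WDR4, the partner of the METTL1 enzyme that methylates tRNA, had 1.29, 0 and 0 CPM at 24 h, against 13.4, 8.4 and 8.53 CPM at 6 h, a log2 change of -3.75 ± 0.53 (adjusted p = 4.37e-05). CDC25A, the phosphatase that activates cyclin-dependent kinases for entry into S phase, had 1.55, 1.52 and 0 CPM at 24 h, against 25.2, 16.8 and 12.2 CPM at 6 h, a log2 change of -3.72 ± 0.51 (adjusted p = 3.22e-05). WDR4 and CDC25A were at or below 1.55 CPM in every 24 h library, and higher in every 6 h library. BID, a BH3-only protein that promotes apoptosis, had 5.42, 2.53 and 3.47 CPM at 24 h, against 31.7, 26.2 and 20.1 CPM at 6 h, a log2 change of -2.66 ± 0.45 (adjusted p = 0.000489). NES, which encodes the intermediate filament nestin, had 9.04, 12.2 and 13.9 CPM at 24 h, against 77.7, 37.3 and 44.5 CPM at 6 h, a log2 change of -2.28 ± 0.39 (adjusted p = 0.000516). Both were low in all 3 libraries at 24 h, with no overlap. FAM111B, a protease gene that rises in S phase, had 3.87, 2.53 and 43.4 CPM at 24 h, against 53.7, 71.4 and 64 CPM at 6 h, a log2 change of -2.58 ± 0.64 (adjusted p = 0.0129). Its replicate 3 at 24 h stood far above the other two and close to the 6 h libraries, and LY6D, a surface protein of epithelial cells, showed the same order with 4.13, 2.53 and 29.5 CPM at 24 h, against 70.8, 57.2 and 30.5 CPM at 6 h. The remaining falls were ALDH1A3, which makes retinoic acid, TNFRSF10D, a decoy receptor for TRAIL, the adhesion protein CLMP, C16orf74, MCM2, CDC45, NT5DC2 and SAMD1.

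**Figure D2:**
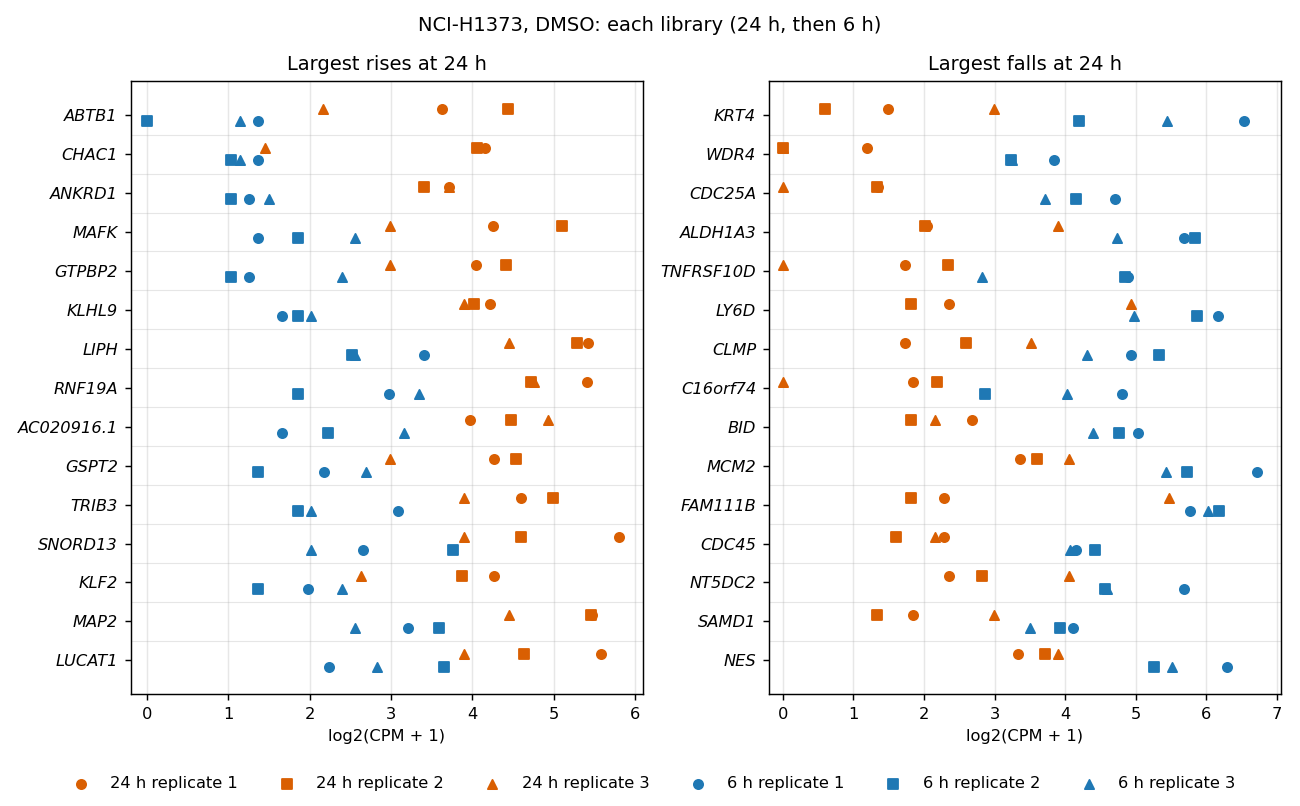
Each library's log2(CPM + 1) for the 15 genes with the largest rise (left) and the 15 with the largest fall (right) at 24 h in DMSO, with 24 h libraries in orange above 6 h libraries in blue and a marker shape per replicate. The 24 h and 6 h points of a gene do not overlap, as the choice of genes required, and the 24 h triangle (replicate 3) of CHAC1, FAM111B and LY6D sits near the 6 h points.

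Ordered by adjusted p, the 10 leading genes were all lower at 24 h. HSPA8 (ENSG00000109971.13, chromosome 11, 123057489 to 123063230 on GRCh38), the constitutive HSP70 chaperone, had 332, 363 and 484 CPM at 24 h, against 1095, 748 and 1364 CPM at 6 h, a log2 change of -1.45 ± 0.19 (adjusted p = 3.22e-05). RANBP1, a partner of the nuclear transport GTPase RAN, had 10.6, 9.62 and 24.3 CPM at 24 h, against 60.8, 42.5 and 46.3 CPM at 6 h, a log2 change of -1.96 ± 0.27 (adjusted p = 3.22e-05). TFRC, the transferrin receptor that brings iron into cells, had 52.4, 25.8 and 81.6 CPM at 24 h, against 178, 221 and 164 CPM at 6 h, a log2 change of -1.88 ± 0.29 (adjusted p = 0.00022). In all 3 genes every 24 h library lay below every 6 h library. PRSS3, which encodes mesotrypsin, fell by 1.73 ± 0.24 (adjusted p = 3.22e-05), HNRNPAB, an RNA-binding protein, fell by 1.36 ± 0.21 (adjusted p = 0.00024), and NUDT3 fell by 1.2 ± 0.17 (adjusted p = 7.69e-05). NUDT3 lies within the readthrough gene RPS10-NUDT3, so its counts may be shared. CDC25A, WDR4 and CDC6 were also among the 10. Of the 38 genes named for their size or p, 26, 31 and 38 were called without 24 h replicate 1, 2 or 3, against 32, 35 and 37 without 6 h replicate 1, 2 or 3. CHAC1, KRT4, LY6D, TNFRSF10D, ANKRD1 and SNORD13 lost their call both in a fit without a 24 h library and in one without a 6 h library.

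Of the genes of DNA replication and entry into S phase, 22 of 40 tested members were called lower, none was called higher, and all 40 had a negative change. Their median log2 change was -1.1. CDC6 (ENSG00000094804.9, chromosome 17, 40287633 to 40304657 on GRCh38), which loads the MCM helicase onto origins, had 13.4, 14.2 and 36.5 CPM at 24 h, against 82.5, 95.5 and 65.2 CPM at 6 h, a log2 change of -2.12 ± 0.33 (adjusted p = 0.000191). The helicase subunit MCM6 had 23.2, 19.2 and 36.5 CPM at 24 h, against 109, 77.1 and 75 CPM at 6 h, a log2 change of -1.82 ± 0.29 (adjusted p = 0.000265). MCM2, another subunit, had 9.3, 11.1 and 15.6 CPM at 24 h, against 105, 52 and 42.1 CPM at 6 h, a log2 change of -2.59 ± 0.41 (adjusted p = 0.000294), with TPRA1 on the opposite strand. In all 3 genes, replicate 3 was the highest of the 24 h libraries, and none overlapped the 6 h group.

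Promoter windows of these 3 genes, chosen as the called members with the smallest adjusted p, are printed because E2F factors are known to act there. The sequences are from RefSeq on GRCh38.p14, each 250 bases before to 50 after the annotated start, read 5′ to 3′ along the gene, with matches to TTTCCCGC or TTTGGCGC on either strand in capitals. CDC6 lies at chr17:40287629-40287928 (plus strand), MCM6 at chr2:135876394-135876693 (minus strand) and MCM2 at chr3:127598161-127598460 (plus strand). The RefSeq start of CDC6 lies downstream of the GENCODE start given above, so nearly all of its window is inside the GENCODE gene.
CDC6: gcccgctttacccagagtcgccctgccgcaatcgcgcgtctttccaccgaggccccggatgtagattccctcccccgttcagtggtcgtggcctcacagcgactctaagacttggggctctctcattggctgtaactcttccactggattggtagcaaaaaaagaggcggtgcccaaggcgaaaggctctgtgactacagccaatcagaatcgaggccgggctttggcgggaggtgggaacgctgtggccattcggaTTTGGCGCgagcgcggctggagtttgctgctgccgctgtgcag
MCM6: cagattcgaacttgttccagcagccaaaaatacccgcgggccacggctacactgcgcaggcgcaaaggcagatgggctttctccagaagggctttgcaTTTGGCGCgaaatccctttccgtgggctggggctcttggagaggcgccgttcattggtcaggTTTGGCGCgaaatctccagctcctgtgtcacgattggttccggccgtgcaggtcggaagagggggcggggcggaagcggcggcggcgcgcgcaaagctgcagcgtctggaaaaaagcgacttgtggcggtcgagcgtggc
MCM2: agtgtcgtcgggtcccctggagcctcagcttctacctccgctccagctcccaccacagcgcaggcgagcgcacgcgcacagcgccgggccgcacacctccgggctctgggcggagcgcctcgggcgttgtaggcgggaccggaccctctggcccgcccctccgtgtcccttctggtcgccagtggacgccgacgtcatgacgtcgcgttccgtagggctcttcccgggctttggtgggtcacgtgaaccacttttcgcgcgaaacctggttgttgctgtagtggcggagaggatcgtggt
CDC6 holds 1 match, MCM6 holds 2 and MCM2 holds none of these letters. A window with either motif was found for 18 of the 36 list members with an entry in the table (50%), and for 631 of 27305 promoters of the same length (2.3%). Among the 19 called members with an entry, 9 held a match. A match describes the letters only.

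Called members covered other parts of the replication machinery. CDC45, the helicase cofactor, had 3.87, 2.03 and 3.47 CPM at 24 h, against 16.7, 20.5 and 15.9 CPM at 6 h, a log2 change of -2.46 ± 0.44 (adjusted p = 0.000923). PCNA, the sliding clamp of DNA polymerases, had 50.6, 33.4 and 71.2 CPM at 24 h, against 131, 162 and 90.8 CPM at 6 h, a log2 change of -1.36 ± 0.27 (adjusted p = 0.00182). The transcription factor E2F1 fell by 2.11 ± 0.57 (adjusted p = 0.0174), and cyclin E2 (CCNE2), which drives entry into S phase, fell by 1.98 ± 0.59 (adjusted p = 0.0316). Of the nucleotide enzymes, TYMS (thymidylate synthase) fell by 1.28 ± 0.33 (adjusted p = 0.0138) and RRM1 (ribonucleotide reductase) fell by 0.77 ± 0.21 (adjusted p = 0.0171). Like MCM2, CCNE2 and TYMS each have another gene on the opposite strand. The mean log2 CPM of the 40 members was 3.93, 3.89 and 5.06 at 24 h, against 5.53, 5.42 and 5.4 at 6 h, so the groups did not overlap but replicate 3 lay most of the way to 6 h. The number of members called lower was 6, 7 and 31 without 24 h replicate 1, 2 or 3, and 12, 15 and 22 without 6 h replicate 1, 2 or 3. Of the mitosis genes, 0 of 36 were called in either direction by edgeR and 0 by DESeq2, with 5 at an unadjusted p under 0.05. Their median was -0.23 (-0.12 without 24 h replicate 2), and the closest to the threshold was CCNA2, cyclin A2, at -0.61 ± 0.22 (adjusted p = 0.0684). MKI67, the proliferation marker Ki-67, had 417, 473 and 289.9 CPM at 24 h, against 491, 274 and 475 CPM at 6 h, and its groups overlapped. The difference between the replication and mitosis lists was not tested.

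Ribosomal protein genes made up the list with the largest share of called members. Of 78 tested, 53 were called lower and none higher, all 78 had a negative change, and the median was -0.76. Summed over the list they took 143400, 105300 and 191100 CPM at 24 h, against 238100, 297500 and 191400 CPM at 6 h. The third replicates thus had almost the same sum at both times, and the groups were separated by the other libraries. RPL11, a protein of the large subunit, had 922, 875 and 1432 CPM at 24 h, against 2171, 2347 and 1832 CPM at 6 h, a log2 change of -0.98 ± 0.18 (adjusted p = 0.00116). RPL3, also of the large subunit, had 1184, 1175 and 1521 CPM at 24 h, against 3688, 2731 and 2106 CPM at 6 h, a log2 change of -1.14 ± 0.23 (adjusted p = 0.00219). Every 24 h library of both genes lay below every 6 h library. Members called lower numbered 13, 10 and 66 without 24 h replicate 1, 2 or 3, and 30, 19 and 63 without 6 h replicate 1, 2 or 3. These genes have many near-identical pseudogenes, and counts may be split among the copies.

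Nucleolar genes that build ribosomes were called lower for 9 of 18 members and higher for none, with a median of -0.84. RRP9, which works with the U3 small nucleolar RNA, had 8.78, 8.61 and 12.2 CPM at 24 h, against 38.6, 33.1 and 26.8 CPM at 6 h, a log2 change of -1.83 ± 0.32 (adjusted p = 0.000594). RRP12, needed for export of ribosomal subunits, had 14.2, 14.7 and 13.9 CPM at 24 h, against 58.6, 25.2 and 51.2 CPM at 6 h, a log2 change of -1.66 ± 0.29 (adjusted p = 0.000721). FBL (fibrillarin), the methyltransferase of ribosomal RNA, had 86, 124 and 153 CPM at 24 h, against 402, 204 and 275 CPM at 6 h, a log2 change of -1.3 ± 0.23 (adjusted p = 0.000735). NOP56, in the same particle as fibrillarin, fell by 1.04 ± 0.19 (adjusted p = 0.00127), and BOP1, of the large subunit pathway, fell by 1.38 ± 0.37 (adjusted p = 0.0165). None of these 5 genes overlapped between times. Without 24 h replicate 3 the number called lower was 15, and without any other single library it was 6 to 8.

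Heat shock chaperones, mostly cytosolic, were called lower for 6 of 15 and higher for none, with a median of -0.78. Besides HSPA8, the HSP110 chaperone HSPH1 had 50.6, 59.7 and 67.7 CPM at 24 h, against 132, 122 and 156 CPM at 6 h, a log2 change of -1.22 ± 0.24 (adjusted p = 0.00176). STIP1, which links HSP70 to HSP90, had 66.9, 63.3 and 118 CPM at 24 h, against 159, 142 and 122 CPM at 6 h, a log2 change of -0.81 ± 0.20 (adjusted p = 0.00935), its replicate 3 at 24 h close to the 6 h values. DNAJA1, an HSP70 cochaperone, fell by 0.79 ± 0.22 (adjusted p = 0.0218). The mitochondrial chaperonin HSPD1 fell by 0.79 ± 0.21 (adjusted p = 0.0171) and its partner HSPE1 fell by 1.3 ± 0.41 (adjusted p = 0.0434), and since these genes lie head to head on opposite strands their counts may be shared. Members called numbered 2, 2 and 7 without 24 h replicate 1, 2 or 3, and 4, 3 and 7 without 6 h replicate 1, 2 or 3.

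Glycolysis genes were called lower for 7 of 23 and higher for none, with a median of -0.65. Enolase ENO1 had 781, 839.5 and 1342 CPM at 24 h, against 2853, 2024 and 1681 CPM at 6 h, a log2 change of -1.15 ± 0.24 (adjusted p = 0.00295). Lactate dehydrogenase LDHA had 494, 515 and 1158 CPM at 24 h, against 1773, 1588 and 1382 CPM at 6 h, a log2 change of -1.14 ± 0.26 (adjusted p = 0.00661). PGAM1, phosphoglycerate mutase, had 147, 143 and 193 CPM at 24 h, against 403, 299 and 257 CPM at 6 h, a log2 change of -1.0 ± 0.22 (adjusted p = 0.00499). In all 3 genes, replicate 3 was the highest at 24 h and did not reach the lowest 6 h library. The mean of the list overlapped between times, at 5.88, 5.98 and 5.56 log2 CPM at 24 h, against 6.79, 6.23 and 5.71 at 6 h. Without 6 h replicate 1 the median log2 change was -0.31. Counts called lower were 2, 3 and 9 without 24 h replicate 1, 2 or 3, and 3, 4 and 10 without 6 h replicate 1, 2 or 3. Nuclear genes of oxidative phosphorylation had 25 of 25 negative changes with a median of -0.42 (-0.26 without 24 h replicate 2), of which 2 were called: NDUFS3, of complex I, at -0.64 ± 0.15 (adjusted p = 0.00795), and UQCRC1, of complex III, at -0.58 ± 0.17 (adjusted p = 0.0298). NDUFS3 overlaps CELF1 and PTPMT1. Of the 13 protein genes of the mitochondrial genome, 0 were called by edgeR or DESeq2 and 1 had an unadjusted p under 0.05, with a median of -0.11 that ran from -0.28 to 0.15 without 24 h replicate 1 and without 6 h replicate 2.

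**Figure D3:**
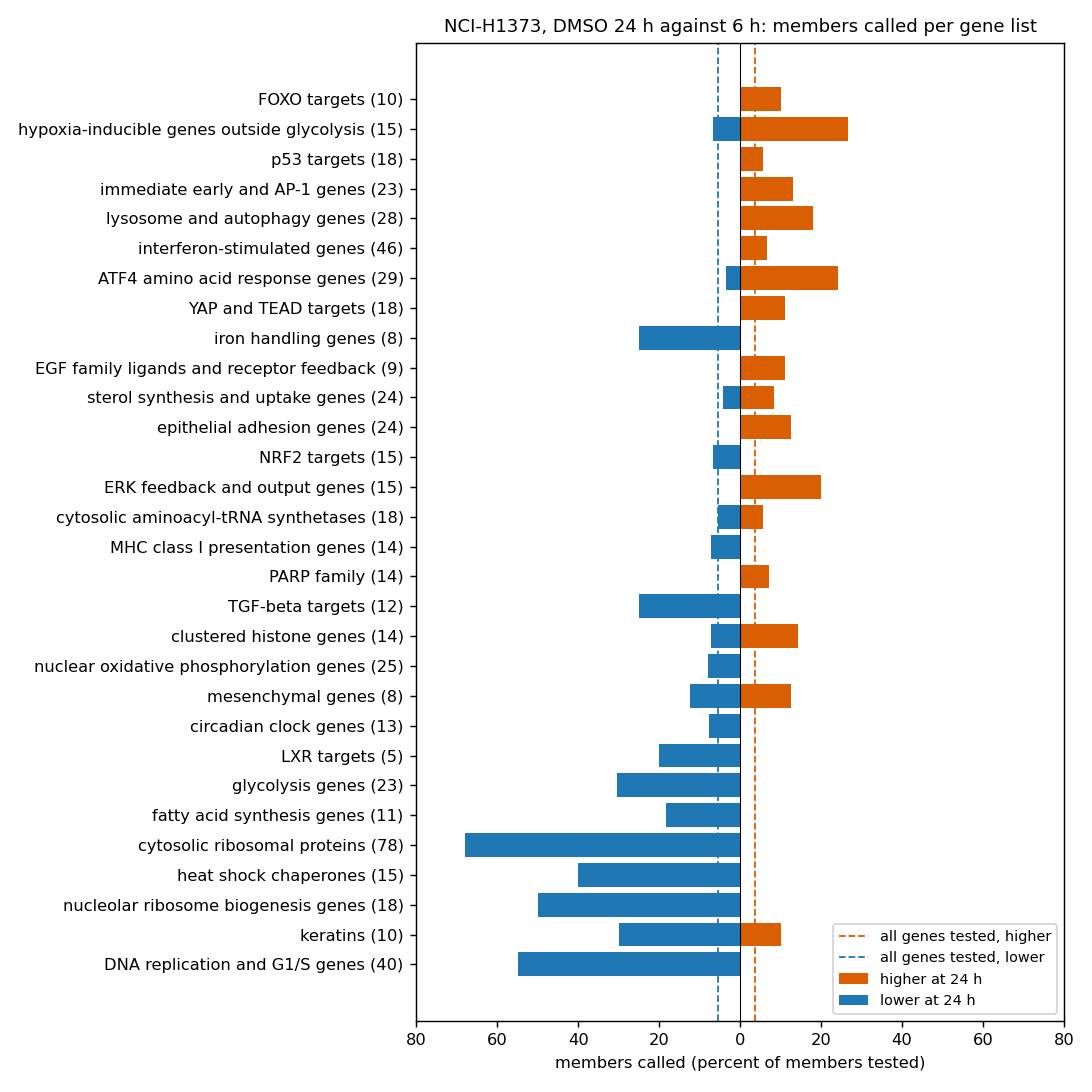
Percent of tested members called higher (orange, right) and lower (blue, left) at 24 h in DMSO for the gene lists with any call, ordered by median log2 change, with the number tested in brackets and dashed lines at 3.66% and 5.46% for all genes tested. Ribosomal proteins, DNA replication, ribosome biogenesis and heat shock chaperones reach the furthest to the left, and hypoxia-inducible and ATF4 genes the furthest to the right.

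On the rising side, ATF4 amino acid response genes were called higher for 7 of 29 and lower for 1, with a median of 0.28 that was 0.07 without 24 h replicate 2. TRIB3, a pseudokinase induced in the stress response, had 23.2, 30.9 and 13.9 CPM at 24 h, against 7.48, 2.62 and 3.05 CPM at 6 h, a log2 change of 2.27 ± 0.43 (adjusted p = 0.00159). SLC7A11, the cystine transporter, had 246, 259 and 229 CPM at 24 h, against 104, 107 and 165 CPM at 6 h, a log2 change of 0.98 ± 0.23 (adjusted p = 0.00704). CEBPB and CEBPG, bZIP factors that pair with ATF4, rose by 1.67 ± 0.45 (adjusted p = 0.0175) and 0.96 ± 0.25 (adjusted p = 0.0151), and NUPR1, a stress-induced chromatin protein, by 0.84 ± 0.27 (adjusted p = 0.0414). No 24 h library of these genes overlapped a 6 h library. ASNS, asparagine synthetase, was called with 8.27, 139 and 0 CPM at 24 h, against 2.16, 3.15 and 0.61 CPM at 6 h, a log2 change of 4.61 ± 1.04 (adjusted p = 0.00703). Its groups overlapped, and the change rests on replicate 2: without that library the log2 change was 1.43 (adjusted p = 0.492). PYCR1, which makes proline, fell by 1.08 ± 0.28 (adjusted p = 0.0148), with overlapping groups. The factor ATF4 itself had 203, 312 and 156 CPM at 24 h, against 266, 199 and 224 CPM at 6 h, a log2 change of -0.03 ± 0.21 (adjusted p = 0.954). Members called higher numbered 3, 2 and 6 without 24 h replicate 1, 2 or 3, and 3, 5 and 6 without 6 h replicate 1, 2 or 3. In inhibitor-treated cells 6 of the 29 were called higher and 9 lower with time, with a median of -0.03. Of all genes tested there, 17.2% were called higher and 17.9% lower.

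Promoters of TRIB3 at chr20:381045-381344 (plus strand) and ASNS at chr7:97872359-97872658 (minus strand), the called ATF4 list members with the smallest adjusted p, were searched for the amino acid response motif TGATGNAAN and are printed with matches on either strand in capitals.
TRIB3: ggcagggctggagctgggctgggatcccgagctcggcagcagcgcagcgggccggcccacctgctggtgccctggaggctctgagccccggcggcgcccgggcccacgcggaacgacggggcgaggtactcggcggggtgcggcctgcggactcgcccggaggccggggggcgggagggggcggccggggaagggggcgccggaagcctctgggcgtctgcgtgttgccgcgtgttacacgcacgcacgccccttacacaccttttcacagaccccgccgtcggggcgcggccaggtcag
ASNS: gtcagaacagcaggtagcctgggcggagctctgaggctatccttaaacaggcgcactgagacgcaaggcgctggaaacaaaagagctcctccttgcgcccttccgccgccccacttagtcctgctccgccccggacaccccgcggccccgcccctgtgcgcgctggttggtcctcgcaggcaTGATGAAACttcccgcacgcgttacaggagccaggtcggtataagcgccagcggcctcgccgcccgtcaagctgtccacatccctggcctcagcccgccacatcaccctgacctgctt
ASNS holds 1 match, 68 bases before the annotated start, and TRIB3 holds none in this window. The motif was found for 4 of 24 list members with an entry (16.7%) and for 1002 of 27305 promoters (3.7%).

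Lysosome and autophagy genes were called higher for 5 of 28 and lower for none, with a median of 0.32 that was 0.18 without 24 h replicate 2 and 0.5 without 6 h replicate 1. GABARAPL1, a protein of the autophagosome membrane, had 36.4, 46.1 and 5.21 CPM at 24 h, against 6.89, 5.77 and 6.71 CPM at 6 h, a log2 change of 2.28 ± 0.50 (adjusted p = 0.00454). SQSTM1 (p62), an autophagy receptor, had 1495, 1890.2 and 606 CPM at 24 h, against 661, 398 and 614 CPM at 6 h, a log2 change of 1.26 ± 0.32 (adjusted p = 0.0121). In both genes replicates 1 and 2 at 24 h lay above every 6 h library and replicate 3 did not. WIPI1, an early autophagy factor, rose by 1.8 ± 0.47 (adjusted p = 0.0138), the kinase ULK1 that starts autophagy by 1.86 ± 0.59 (adjusted p = 0.0436), and the sialidase NEU1 by 1.52 ± 0.48 (adjusted p = 0.0418). The list's mean was 5.62, 5.67 and 4.5 log2 CPM at 24 h, against 5.24, 4.94 and 4.65 at 6 h. Members called higher numbered 1, 1 and 10 without 24 h replicate 1, 2 or 3, and 2, 1 and 4 without 6 h replicate 1, 2 or 3.

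Hypoxia-inducible genes outside glycolysis were called higher for 4 of 15 and lower for 1, with a median of 0.47. DDIT4 (REDD1), an inhibitor of mTORC1, had 46, 56.7 and 41.7 CPM at 24 h, against 15.3, 8.92 and 14 CPM at 6 h, a log2 change of 1.9 ± 0.43 (adjusted p = 0.00678), with no overlap. NDRG1, a stress-induced gene, had 242, 228 and 29.5 CPM at 24 h, against 72.4, 50.4 and 21.9 CPM at 6 h, a log2 change of 1.8 ± 0.41 (adjusted p = 0.00684), and its replicate 3 at 24 h lay within the 6 h range. BNIP3L, a mitophagy receptor, rose by 0.87 ± 0.23 (adjusted p = 0.0165), and P4HA2, a collagen prolyl hydroxylase, by 0.97 ± 0.29 (adjusted p = 0.0296), while ANKRD37 fell by 1.06 ± 0.34 (adjusted p = 0.0437). VEGFA, the classical target of hypoxia-inducible factors, was at -0.17 ± 0.84 (adjusted p = 0.937). Calls of higher members numbered 1, 3 and 5 without 24 h replicate 1, 2 or 3, and 3, 3 and 2 without 6 h replicate 1, 2 or 3. Of 10 FOXO targets 1 was called: CCNG2, cyclin G2, a cyclin of resting cells, had 14.7, 14.2 and 5.21 CPM at 24 h, against 3.35, 3.67 and 2.44 CPM at 6 h, a log2 change of 1.94 ± 0.47 (adjusted p = 0.00935). Of 18 p53 targets the one called was RRM2B, a ribonucleotide reductase subunit for quiescent cells, which rose by 2.02 ± 0.54 (adjusted p = 0.0158).

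**Figure D4:**
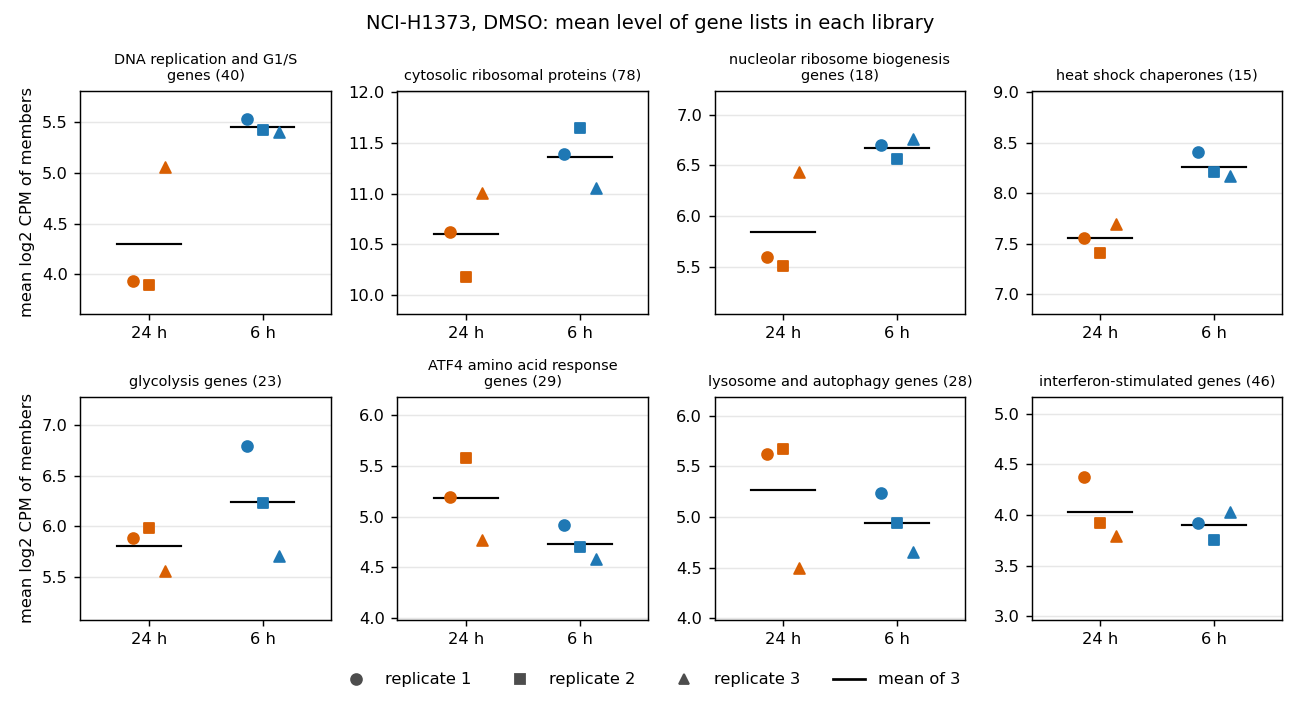
Mean log2 CPM over the members of 8 gene lists in each DMSO library of NCI-H1373, with 24 h (orange) left of 6 h (blue), a marker shape per replicate and a line at the mean of 3, on axes of equal length that do not start at 0. The replication, ribosome biogenesis and heat shock lists are lower at 24 h in all 3 libraries, and the 24 h triangle (replicate 3) lies towards the 6 h level for replication and ribosome biogenesis.

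Among growth signalling lists, ERK output genes were called higher for 20%, immediate early genes for 13% and TGF-beta targets lower for 25%. YAP and TEAD targets and EGF family genes were each called higher for 11.1%. None of these lists had a call the other way. Of all genes tested, 3.66% were called higher and 5.46% lower. AREG, the EGF receptor ligand amphiregulin, had 204, 360.0 and 239.5 CPM at 24 h, against 87, 97.6 and 159 CPM at 6 h, a log2 change of 1.24 ± 0.33 (adjusted p = 0.0177), with every 24 h library above every 6 h library. It was the 1 member called of 9 EGF family ligands and receptor feedback genes. Of 15 ERK output genes 3 were called higher, the receptor EPHA2 by 1.49 ± 0.44 (adjusted p = 0.0303), the phosphatase DUSP5 by 1.72 ± 0.52 (adjusted p = 0.0354) and the transcription factor ETV5 by 1.14 ± 0.36 (adjusted p = 0.0385), all with overlapping groups. ERK output genes called higher numbered 0, 0 and 3 without 24 h replicate 1, 2 or 3, and 1, 0 and 2 without 6 h replicate 1, 2 or 3. DUSP6, a direct feedback phosphatase of ERK, was at 0.65 ± 0.32 (adjusted p = 0.203). Among 23 immediate early genes 3 were called higher: KLF2 had 18.3, 13.7 and 5.21 CPM at 24 h, against 2.95, 1.57 and 4.27 CPM at 6 h, a log2 change of 2.23 ± 0.50 (adjusted p = 0.0057), ZFP36, which destabilises AU-rich messenger RNAs, rose by 1.56 ± 0.50 (adjusted p = 0.0418), and the survival protein MCL1 by 1.0 ± 0.30 (adjusted p = 0.0306). Immediate early genes called higher numbered 0, 1 and 4 without 24 h replicate 1, 2 or 3, and 1, 1 and 4 without 6 h replicate 1, 2 or 3. FOS, EGR1 and MYC had log2 changes of -0.38, 0.51 and 0.31 and were not called. Of 18 YAP and TEAD targets, ANKRD1 and CTGF were called higher, CTGF with 96.6, 91.6 and 8.68 CPM at 24 h, against 9.25, 19.4 and 4.27 CPM at 6 h, a log2 change of 2.66 ± 0.86 (adjusted p = 0.0497). Its replicate 3 at 24 h lay within the 6 h range, and CYR61, the usual companion target, was at 0.34 ± 0.49 (adjusted p = 0.746). TGF-beta targets called lower numbered 1, 2 and 3 without 24 h replicate 1, 2 or 3, and 1, 3 and 3 without 6 h replicate 1, 2 or 3, with a median log2 change of 0.16 without 6 h replicate 1 and -0.15 to -0.29 without any other single library. With all libraries 3 of 12 were called lower: TGFBI, a matrix protein, had 298, 287 and 338 CPM at 24 h, against 928, 556 and 589 CPM at 6 h, a log2 change of -1.17 ± 0.23 (adjusted p = 0.00176), PMEPA1, a feedback inhibitor, fell by 1.11 ± 0.28 (adjusted p = 0.013), and LTBP2 fell by 1.39 ± 0.45 (adjusted p = 0.0436).

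Epithelial genes moved in both directions. Keratins were called lower for 3 of 10 and higher for 1, with a median of -0.86. KRT7, a keratin of simple epithelia, had 203, 307 and 609 CPM at 24 h, against 2221, 715 and 1195 CPM at 6 h, a log2 change of -1.9 ± 0.39 (adjusted p = 0.00295). KRT18 had 627, 754 and 993 CPM at 24 h, against 2385, 1256 and 1539 CPM at 6 h, a log2 change of -1.13 ± 0.28 (adjusted p = 0.0111), and KRT8 lies on the opposite strand. KRT15, a keratin of basal cells, had 47.3, 54.7 and 15.6 CPM at 24 h, against 14.4, 8.4 and 10.4 CPM at 6 h, a log2 change of 1.87 ± 0.36 (adjusted p = 0.00168). The libraries of these 3 keratins did not overlap between times. Keratins called lower numbered 1, 1 and 5 without 24 h replicate 1, 2 or 3, and 1, 2 and 3 without 6 h replicate 1, 2 or 3. Of 24 epithelial adhesion genes, 3 tight junction genes were called higher: CLDN4 (claudin 4) had 159, 109 and 64.2 CPM at 24 h, against 34.6, 27.8 and 38.4 CPM at 6 h, a log2 change of 1.76 ± 0.51 (adjusted p = 0.0294), TJP1 (ZO-1) rose by 0.77 ± 0.24 (adjusted p = 0.0384) and OCLN (occludin) by 1.56 ± 0.47 (adjusted p = 0.0306). Calls of higher members numbered 0, 0 and 6 without 24 h replicate 1, 2 or 3, and 0, 1 and 2 without 6 h replicate 1, 2 or 3. E-cadherin, CDH1, was at -0.30 ± 0.33 (adjusted p = 0.641). Vimentin, VIM, a mesenchymal intermediate filament, had 31, 20.3 and 88.5 CPM at 24 h, against 217, 184 and 151 CPM at 6 h, a log2 change of -2.12 ± 0.63 (adjusted p = 0.0344), and the transcriptional repressor ZEB1 rose by 1.73 ± 0.53 (adjusted p = 0.0346), the only calls among 8 mesenchymal genes. None of 10 lung lineage genes was called by edgeR or DESeq2, with 3 at an unadjusted p under 0.05.

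TIPARP, which encodes the PARP7 that the study's compounds inhibit, did not change by a detectable amount with time in DMSO: it had 40.6, 24.8 and 43.4 CPM at 24 h, against 30.5, 71.9 and 21.9 CPM at 6 h, a log2 change of -0.21 ± 0.34 (adjusted p = 0.774), with overlapping groups. PARP4 was the 1 called of 14 PARP family genes, at 0.83 ± 0.22 (adjusted p = 0.0178). None of 8 tested genes in the list of the aryl hydrocarbon receptor and its targets, among them CYP1A1, CYP1B1 and AHRR, was called by edgeR or DESeq2, and 0 had an unadjusted p under 0.05. Interferon-stimulated genes were called higher for 3 of 46 (6.52%), against 3.66% of all genes tested, and lower for none. Their median was 0.32, and 0.01 without 24 h replicate 1. SAMD9 had 129.9, 76.5 and 50.3 CPM at 24 h, against 19.5, 17.8 and 36 CPM at 6 h, a log2 change of 1.88 ± 0.51 (adjusted p = 0.0211). IFIT5 rose by 1.95 ± 0.54 (adjusted p = 0.0209), and SAMD9L by 2.24 ± 0.65 (adjusted p = 0.0287), the last with replicate 3 at 24 h below the 6 h libraries. Members called higher numbered 0, 2 and 3 without 24 h replicate 1, 2 or 3, and 0, 1 and 3 without 6 h replicate 1, 2 or 3. Classical members such as ISG15 (log2 change -0.14), MX1 (0.90) and IFIT1 (-0.53) were not called. In inhibitor-treated cells, 43 of the 46 were called higher with time, against 17.2% of all genes tested, with a median of 1.65. None of 20 NF-kB targets was called in DMSO by edgeR, against 1 by DESeq2, with 4 at an unadjusted p under 0.05. Of 14 genes of MHC class I presentation the peptidase ERAP1 fell by 1.4 ± 0.42 (adjusted p = 0.0302).

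Fatty acid synthesis genes were called lower for 2 of 11 (18.2%) and iron handling genes for 2 of 8 (25%), with none called higher. Of all genes tested, 5.46% were called lower. HMGCS1, an early enzyme of sterol synthesis, rose by 1.09 ± 0.27 (adjusted p = 0.0109), while PMVK, a kinase of the mevalonate pathway, fell by 1.22 ± 0.30 (adjusted p = 0.00989), both among 24 sterol genes. SCD, which desaturates fatty acids, fell by 1.04 ± 0.31 (adjusted p = 0.0306) and fatty acid synthase, FASN, fell by 1.2 ± 0.39 (adjusted p = 0.0459), both with overlapping groups. ACO1, the iron-responsive aconitase, fell by 0.92 ± 0.24 (adjusted p = 0.0151) beside TFRC, with overlapping groups for ACO1. PER2 was the 1 called of 13 circadian clock genes, with 0.517, 1.01 and 3.47 CPM at 24 h, against 3.74, 3.15 and 6.71 CPM at 6 h, a log2 change of -2.05 ± 0.67 (adjusted p = 0.0454). The PER2 groups overlapped, and its levels were low. Of 14 clustered histone genes, HIST1H2AC had 41.1, 22.8 and 20.8 CPM at 24 h, against 6.1, 12.1 and 3.66 CPM at 6 h, a log2 change of 2.02 ± 0.39 (adjusted p = 0.00172), HIST1H2BD rose by 1.26 ± 0.29 (adjusted p = 0.00684), and the linker histone HIST1H1E fell by 1.02 ± 0.32 (adjusted p = 0.0392). No member was called in 11 of the 41 lists, among them the unfolded protein response (21 genes, median -0.30), SRF and actin genes (16 genes, median -0.31, or -0.10 without 6 h replicate 1) and metallothioneins (6 genes, median -0.11, or 0.25 without 24 h replicate 2). At an unadjusted p under 0.05 these held 6, 5 and 2 genes, and DESeq2 called 1, 1 and 0. Among the genes named for their lists, WIPI1, ASNS, P4HA2, BNIP3L, PER2, ZEB1, ERAP1, CEBPB, ULK1, ANKRD37, ETV5 and TIPARP overlap another gene, as do RANBP1, HNRNPAB, ALDH1A3 and NT5DC2 above, and may share its reads.

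The step from 6 h to 24 h was also measured in the 36 inhibitor-treated cultures of the line, with no library shared. Compound was present in each of these cultures, so time and the response to compound cannot be told apart there. There 4501 genes (35.1%) were called, 2208 higher (17.2%) and 2293 lower (17.9%), with 18 libraries per time against 3 in DMSO. Of the 1170 genes called in DMSO, 803 (68.6%) were called in the same direction in treated cells, which is 17.8% of the treated calls, and 20 were called in the opposite direction. The sign was the same for 1073 of the 1170 (91.7%) and for 69.3% of all tested genes. The treated groups carry the same imbalance of depth, with total counts under 2200000 in 12 of 18 libraries at 24 h, against 6 of 18 at 6 h. Within the deeper treated libraries, 6 at 24 h and 12 at 6 h, 2374 genes (18.5%) were called, and the sign was the same for 91.1% of the 1170 and for 64.5% of all tested genes. Within the shallower ones, 12 at 24 h and 6 at 6 h, 1869 genes (14.6%) were called, with shares of 88.7% and 64.1%. These values by depth were added after the data were examined. HSPA8 had a lowest, median and highest value of 419, 632 and 769.9 CPM over the 18 treated libraries at 24 h, against 881, 1144 and 1439 CPM over the 18 at 6 h, a log2 change of -0.93 ± 0.08 (adjusted p = 1.15e-11). CDC6 had 15.4, 33.7 and 52.4 CPM over the 18 treated libraries at 24 h, against 34.4, 49 and 73 CPM over the 18 at 6 h, a log2 change of -0.66 ± 0.12 (adjusted p = 4.34e-05). The treated libraries of HSPA8 did not overlap across times, and those of CDC6 did, with a lower median at 24 h. Of the 15 largest rises in DMSO, 11 were called in the same direction in treated cells, and of the 15 largest falls 12 were. Replication genes were called lower for 23 of 40 in treated cells (median -0.42), ribosomal proteins for 61 of 78 (median -0.31) and ribosome biogenesis genes for 18 of 18 (median -0.94). Since members of the DMSO calls were chosen by their DMSO values, their smaller size elsewhere is not a comparison of effects.

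**Figure D5:**
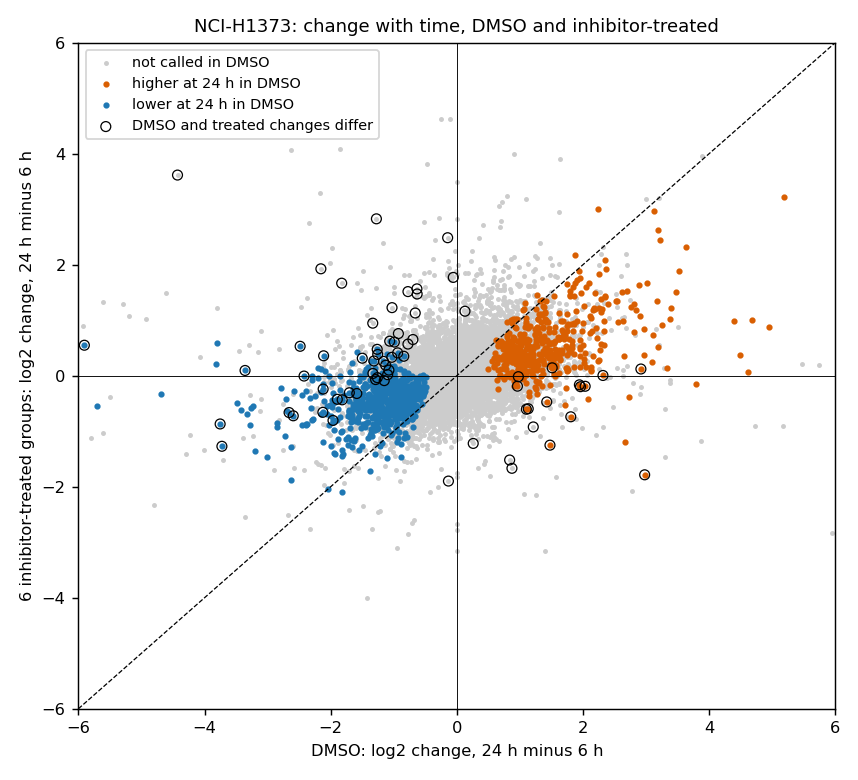
Log2 change from 24 h minus 6 h in DMSO (horizontal) against that over the 6 inhibitor-treated groups (vertical) for the tested genes of NCI-H1373, with genes called higher in DMSO in orange, called lower in blue, and circles around the 68 genes whose 2 changes differed. Most orange points lie above and most blue points below the horizontal line, the dashed line marks equal change, and 18 genes beyond the axes are not drawn.

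The treated change itself differed from the DMSO change for 68 genes (0.53%), 49 of them (0.382%) with a higher change in treated cells and 19 (0.148%) with a lower one. CDC25A fell in DMSO more than in treated cells, whose log2 change was -1.27 ± 0.17 (adjusted p = 1.16e-07), and the treated minus DMSO difference was 2.45 ± 0.55 (adjusted p = 0.0329). The difference was 2.88 ± 0.56 (adjusted p = 0.0249) for WDR4, 1.38 ± 0.31 (adjusted p = 0.0329) for MCM6, 1.87 ± 0.43 (adjusted p = 0.04) for MCM2 and 1.46 ± 0.34 (adjusted p = 0.0403) for CDC6. MAFK, which rose in DMSO, had a log2 change of 0.12 ± 0.23 (adjusted p = 0.73) in treated cells and a difference of -2.8 ± 0.62 (adjusted p = 0.0329). KRT18 fell in DMSO and had a treated change of 0.19 ± 0.11 (adjusted p = 0.202), with a difference of 1.32 ± 0.30 (adjusted p = 0.0392). This contrast was added after the data were examined, and it reuses the DMSO libraries. The genes named for it were picked by their DMSO values, which by itself favours a smaller change in treated cells. Their differences and p-values are thus no comparison of effects free of that choice. Whether their changes differ apart from it was not tested.

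In NCI-H647, 42 of 14789 genes (0.284%) were called between 24 h and 6 h of DMSO, 11 higher (0.0744%) and 31 lower (0.21%). Of 12240 genes tested in both lines, 1116 were called in NCI-H1373 and 32 in NCI-H647, with 4 called in the same direction in both (0.358% of the NCI-H1373 calls and 12.5% of the NCI-H647 calls) and 1, GNG11, in opposite directions. The 4, like GNG11 named after their values were seen, were NES, PMEPA1, the hyaluronan receptor CD44 and the calcium-binding protein S100A2, all lower at 24 h. NES in NCI-H647 had 2.53, 1.2 and 0.588 CPM at 24 h, against 10.1, 5.45 and 11 CPM at 6 h, a log2 change of -2.6 ± 0.50 (adjusted p = 0.0147). PMEPA1 had a log2 change of -1.11 ± 0.28 (adjusted p = 0.013) in NCI-H1373 and -1.53 ± 0.28 (adjusted p = 0.00888) in NCI-H647, CD44 of -0.94 ± 0.23 (adjusted p = 0.0106) and -1.1 ± 0.25 (adjusted p = 0.0453), and S100A2 of -1.49 ± 0.37 (adjusted p = 0.0106) and -2.07 ± 0.46 (adjusted p = 0.0453). The sign in NCI-H647 was the same for 85.8% of the NCI-H1373 calls and for 65.4% of all genes in both. Replication genes had a median of -0.20 in NCI-H647 with 0 of 40 called by edgeR and 2 at an unadjusted p under 0.05. Ribosomal proteins had a median of -0.52 there, with 0 of 78 called by edgeR and 56 at an unadjusted p under 0.05. DESeq2 was not run on that line. The difference between lines was called for 11 of 16177 genes (0.068%), 7 with a higher change in NCI-H1373 (0.0433%) and 4 with a lower one (0.0247%), so calls present in one line and absent in the other were mostly not shown to differ.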

How the data were processed

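The authors deposited estimated counts for 57964 genes in each library, with no normalization. Salmon and hg38 are named in the submitters' processing notes. No source used here gives the annotation, the use of molecular identifiers or the strand setting, so overlapping and antisense genes may share reads, and 3′ libraries were made per the labels' protocols. Of nonzero values, 49.4% were not whole, and all were rounded. Names and positions came from GENCODE 29 by identifier (57845 matched). The 42 NCI-H1373 libraries, 14 groups of 3, were fitted in 1 model so that they share an estimate of spread: filterByExpr, TMM, quasi-likelihood F test with robust dispersion (edgeR 4.0.16, R 4.3.3), Benjamini-Hochberg adjustment within a contrast and a threshold of 0.05. Inhibitor-treated groups were averaged with equal weight. NCI-H647 was fitted the same way, and line differences in all 84 libraries. The contrast of treated with DMSO time changes and the treated values by depth class were added after the data were examined. The fit was tested on simulated data. CPM are TMM-scaled.

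Total counts ran from 630654 to 5994186 in the line, so values near 1 CPM rest on single counts in the shallowest library. Every replicate pair of the 6 libraries differed by more than sampling noise (chi-square per degree of freedom 21.0 to 31.5 over genes with at least 50 summed counts). Deviations of same-numbered libraries at 24 h and 6 h had correlations of 0.23, -0.49 and 0.19 over 6463 genes. This check on 6 libraries cannot exclude that libraries of the same number were handled together. Depth in the line went with replicate number and time, in DMSO and treated groups alike. Total counts lay under 2200000 in every library of 24 h replicates 2 and 3 and of 6 h replicate 3, and in no other. Members, the 46 gene lists and the rules for named genes were chosen with earlier results of these data known. The text names, among called genes whose libraries do not overlap and whose higher group averages at least 10 CPM, the 15 largest rises and 15 largest falls, then the 10 smallest adjusted p, up to 5 leading members by adjusted p of each list described, TIPARP, and up to 5 line differences each way; further members given with values were picked for their known roles. Alternatives tried were other size factors, DESeq2 1.42.0, other filters, the 6 libraries alone or thinned to the smallest total count, depth class, a replicate block and each library left out. A few genes that these rules would name are not reported here.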

Additional observations from a re-analysis of the deposited data

Results flagged for a closer look

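The change with time in DMSO differed between the lines for 11 genes, tested as the difference of the 2 changes over all 84 libraries with edgeR. Those with at least 10 CPM in a group are given here as the log2 change in NCI-H1373 minus that in NCI-H647, with CPM scaled over both lines. COL4A1, a basement membrane collagen, differed by 7.59 ± 1.56 (adjusted p = 0.03), with 4.0, 2.05 and 0 CPM at 24 h, against 0, 0 and 0 CPM at 6 h in NCI-H1373, and 81.3, 41.9 and 33.6 CPM at 24 h, against 193, 56.5 and 122 CPM at 6 h in NCI-H647. It was at 0 in NCI-H1373 at 6 h, so the fitted value depends on the prior count and is no bound. SPANXC, a testis-expressed gene of the X chromosome with near-identical copies, differed by 5.64 ± 1.01 (adjusted p = 0.00712), with 8.8, 3.59 and 0 CPM at 24 h, against 0.411, 0 and 0 CPM at 6 h in NCI-H1373, and 12.7, 6.11 and 16.5 CPM at 24 h, against 14.1, 51.4 and 20.7 CPM at 6 h in NCI-H647. GNG11, a G protein subunit, differed by 3.59 ± 0.67 (adjusted p = 0.00934), with 8.27, 5.64 and 1.74 CPM at 24 h, against 1.44, 1.08 and 0 CPM at 6 h in NCI-H1373, and 221, 109 and 219.9 CPM at 24 h, against 252, 549 and 319 CPM at 6 h in NCI-H647. GNG11 was called in both lines in opposite directions, with a log2 change of 2.55 (adjusted p = 0.0364) in NCI-H1373 and -1.02 (adjusted p = 0.0453) in NCI-H647. All 3 genes had at most 8.8 CPM in NCI-H1373, where 24 h replicates 1 and 2 lay above every 6 h library. COL4A1 and SPANXC did not pass the count filter in the fit of NCI-H1373, so their change was not tested in that line. They entered the test between lines, and met the 10 CPM condition, only through NCI-H647, where they are higher.

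MAFK differed by 3.49 ± 0.70 (adjusted p = 0.0219), with 18.7, 33.8 and 6.94 CPM at 24 h, against 1.65, 2.69 and 5.0 CPM at 6 h in NCI-H1373, and 9.89, 30.9 and 12.7 CPM at 24 h, against 34.4, 11 and 30.6 CPM at 6 h in NCI-H647. KLHL9 differed by 2.35 ± 0.50 (adjusted p = 0.0331), with 18.1, 15.4 and 13.9 CPM at 24 h, against 2.26, 2.69 and 3.12 CPM at 6 h in NCI-H1373, and 28.1, 23 and 34.7 CPM at 24 h, against 26.3, 12.5 and 28.2 CPM at 6 h in NCI-H647. RNF19A, named among the largest rises, differed by 2.17 ± 0.49 (adjusted p = 0.0495). CDC25A differed by -3.15 ± 0.67 (adjusted p = 0.0331), with 1.6, 1.54 and 0 CPM at 24 h, against 26.3, 17.2 and 12.5 CPM at 6 h in NCI-H1373, and 10.2, 3.8 and 4.41 CPM at 24 h, against 11.6, 5.87 and 8.87 CPM at 6 h in NCI-H647. BID differed by -2.78 ± 0.53 (adjusted p = 0.00934), with 5.6, 2.56 and 3.47 CPM at 24 h, against 33.1, 26.9 and 20.6 CPM at 6 h in NCI-H1373, and 246, 72.3 and 140.0 CPM at 24 h, against 150.1, 146 and 129 CPM at 6 h in NCI-H647, so that its fall at 24 h was seen in NCI-H1373 while the NCI-H647 groups overlapped. DHRS4L2 differed by -2.42 ± 0.55 (adjusted p = 0.0495), with 7.73, 0 and 17.4 CPM at 24 h, against 28.4, 21 and 36.2 CPM at 6 h in NCI-H1373, and 30.9, 21.3 and 40.2 CPM at 24 h, against 25.6, 23.5 and 25.3 CPM at 6 h in NCI-H647, and GTF2H3, a subunit of the repair factor TFIIH, by -1.15 ± 0.25 (adjusted p = 0.0462), with 49.6, 29.7 and 39.9 CPM at 24 h, against 71.4, 58.6 and 88.7 CPM at 6 h in NCI-H1373, and 38, 35.2 and 40.2 CPM at 24 h, against 27.5, 30.1 and 34.7 CPM at 6 h in NCI-H647. DHRS4L2 and GTF2H3 each overlap a gene on the other strand and may share reads with it.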

How the results depend on the processing

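The number of genes called between 24 h and 6 h in DMSO was 1143 with DESeq2 size factors, 1262 with the DESeq2 Wald test, 941 with no filter on low counts, 1170 with at least 10 CPM in 3 libraries and 1483 with depth class as a term. It was 1710 with a replicate block, which pairs numbers that the labels do not tie to a culture. It was 457 (168 higher, 289 lower) within the deeper libraries, which leave 1 library at 24 h. It was 0 (0 higher, 0 lower) within the shallower ones, which leave 1 library at 6 h, with 948 at an unadjusted p under 0.05; lone libraries are assumed to vary like the other groups. It was 0 (0 higher, 0 lower) with the 6 DMSO libraries alone, of 10004 genes with 1238 at an unadjusted p under 0.05, and 0 (0 higher, 0 lower) with them thinned to the smallest total, of 6526 genes with 613 at an unadjusted p under 0.05. DESeq2 was not run on those 6 alone. With single libraries left out it ran from 209 to 1884, with 79 to 747 higher and 130 to 1137 lower. At least 1164 of the 1170 called genes had the same sign in every alternative except the stricter filter (1065), the 6 libraries alone (1050) and the thinned libraries (808), which tested fewer genes. None of 3662 values for single named genes reversed a call. These alternatives reuse the same 6 libraries, whole or in part, so kept signs are no separate support. In NCI-H647 the replicate block gave 110 genes against 42, for the difference between lines 28 against 11, and in treated NCI-H1373 cells 5253 against 4501. With DESeq2 size factors, treated cells gave 4486, NCI-H647 43 and the line difference 14. Treated cells gave 2374 within the deeper libraries, 1869 within the shallower ones and 4383 with depth class as a term, against 4501, alternatives chosen after seeing the data. Depth limits the 24 h group most: its replicate 3 holds 630654 counts. Why the counts moved was not tested.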
